A study of Homo sapiens with 9 samples.

Results

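Focal adhesions join the extracellular matrix to the actin cytoskeleton, and the proteins on their cytoplasmic side are described here by their RNA. The set held 43 of the 26475 genes in the count table, taken by symbol from a list of cytoplasmic adaptors and kinases of focal adhesions and of LIM domain proteins. All 43 passed the filter on low counts, as did 13784 genes in all.

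hTERT_RPE1 is an established human line derived from retinal pigment epithelium and immortalised with telomerase. Every culture was lentivirally transduced and grown for 24 h on fibronectin. Cells in sh_PIP4K2B carried 1 of 3 hairpins against PIP4K2B (#1, #2 and #3, 1 library each) on glass. Control cells carried an empty vector on glass, titled pLKO_1, pLKO_2 and pLKO_3 in replicates 1, 2 and 3. Another label calls it a control shRNA. Soft cells carried an empty vector with the same titles, in the same order, on a 2.3 kPa hydrogel. Each condition had 3 libraries. The spread in sh_PIP4K2B therefore contains the differences between hairpins. The labels do not say whether the other replicates were separate cultures, so p-values measure only the spread between these libraries, which may be technical.

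When integrins bind matrix, talin and kindlin attach to their cytoplasmic tails, talin recruits vinculin, and vinculin holds actin. Paxillin and the kinases FAK and SRC form a signalling layer close to the membrane, while zyxin, VASP and many LIM domain proteins sit nearer to the actin and load onto it under tension. In spread epithelial cells on a rigid surface such plaques are large and anchor stress fibres, and on compliant surfaces they are small.

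Library totals ran from 19217346 to 24020799 estimated counts, and 3 counts in 1 library, the floor used here, equalled 0.125 to 0.156 CPM, which are counts scaled to a common library total. PIP4K2B was at 123, 124 and 119.5 CPM in Control, at 48.4, 40.9 and 36.6 CPM with hairpins #1, #2 and #3, and at 119, 122 and 127 CPM in Soft. It was lower in every hairpin library (log2 fold change -1.54, SE 0.12, edgeR adjusted p = 3.8e-04), which checks the labels. Of 12 retinal pigment epithelium markers 2, MITF and OTX2, reached 1 CPM, and RPE65, RLBP1, TYR, DCT, TTR and LRAT were at or near 0, so the libraries show little of the differentiated cell type. The 4 epithelial markers, of which KRT8 and KRT18 were present and CDH1 and EPCAM were near 0, summed to 1921 to 2073 CPM in Control, 708 to 1122 in sh_PIP4K2B and 891 to 943 in Soft. The pigment epithelium list summed to 46.0 to 52.0 CPM in Control, 41.3 to 58.3 in sh_PIP4K2B and 62.7 to 68.1 in Soft, the 4 endothelial markers to 1.40 to 2.32, 2.17 to 10.9 and 8.07 to 9.57 (PECAM1 present in Soft) and the 4 neuronal markers to 13.0 to 15.5, 11.5 to 30.5 and 13.6 to 17.3. The 2 pigment epithelium markers present went opposite ways. OTX2 averaged 10.9 CPM in Control, 17.1 in sh_PIP4K2B and 37.2 in Soft, and MITF averaged 36.5, 30.8 and 26.0 CPM. The 5 blood markers stayed at or under 0.524 CPM in sum. The part of these lists in the results below was not tested. In bulk RNA fewer cells of a type and less RNA per cell cannot be told apart.

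Upon PIP4K2B silencing 4 of the 43 plaque genes (9.3%) passed the threshold, all of them lower. FERMT1, LIMS2, CSRP1 and FHL1 fell in sh_PIP4K2B against Control and none of the 43 rose (edgeR quasi-likelihood test, adjusted p under 0.01). Of all genes tested 2.77% fell and 2.76% rose, 5.54% in total. At an unadjusted p under 0.05 by edgeR, 14 members were lower and 0 were higher. The share of all genes at that unadjusted p was not computed, so such counts have no background here. DESeq2 called 8 lower and 0 higher (15% of all genes called in either direction), and limma voom called 1 lower and 0 higher (2.31%). The median log2 fold change of the 43 was -0.18 against 0.05 over all genes, and 32 of the 43 were below 0 against 45.4% of all genes. In 17 of the 43 all 3 hairpin libraries were below all 3 Control libraries, a pattern that 16.7% of genes showed, and 0 of the 43 had the opposite pattern, shown by 17.4% of genes. These 4 calls were near the threshold, and calls among all genes also became fewer when a Control library was left out. Without Control replicate 1, 2 or 3, where 0.872%, 0.471% and 1.15% of all genes were called, the count of members called was 0. In a fit of the sh_PIP4K2B and Control libraries alone that count was also 0, where 5 of 13331 genes were called (0.0375%, edgeR adjusted p under 0.01). At an unadjusted p under 0.05, a looser threshold than that share has, 9 members were lower in that fit.

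On the soft gel the fitted changes reached further and went both ways. The most extreme log2 fold change was 2.29, against -1.15 for the average over the hairpins, which differed among themselves. In Soft against Control 10 members fell (FERMT1, FERMT2, ITGB1BP1, PXN, NEDD9, LIMS2, ZYX, CSRP1, FHL1 and NEXN) and 4 rose (TNS3, CSRP2, SORBS2 and SVIL). Of all genes 14.8% fell and 15.8% rose (30.6% in total), so the 14 members called are close to the share of genes in general, while 23.3% of the members fell and 9.3% rose. The median log2 fold change of the 43 was -0.25 against 0.01 for all genes. All 3 Soft libraries were below all 3 Control libraries for 28 members (39.1% of genes) and above them for 10 (40.4% of genes).

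Replicates in Soft and Control were much closer to each other than the hairpins were. The median SD of a member's log2 CPM was 0.05 in Control, 0.05 in Soft and 0.35 in sh_PIP4K2B (0.08, 0.07 and 0.33 for all genes), and the fit over 9 libraries uses 1 spread for all. A fit of Soft and Control alone called 25 members lower and 8 higher, where 35.2% of genes were lower and 35.5% higher (70.7% in total).

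**Figure D1:**
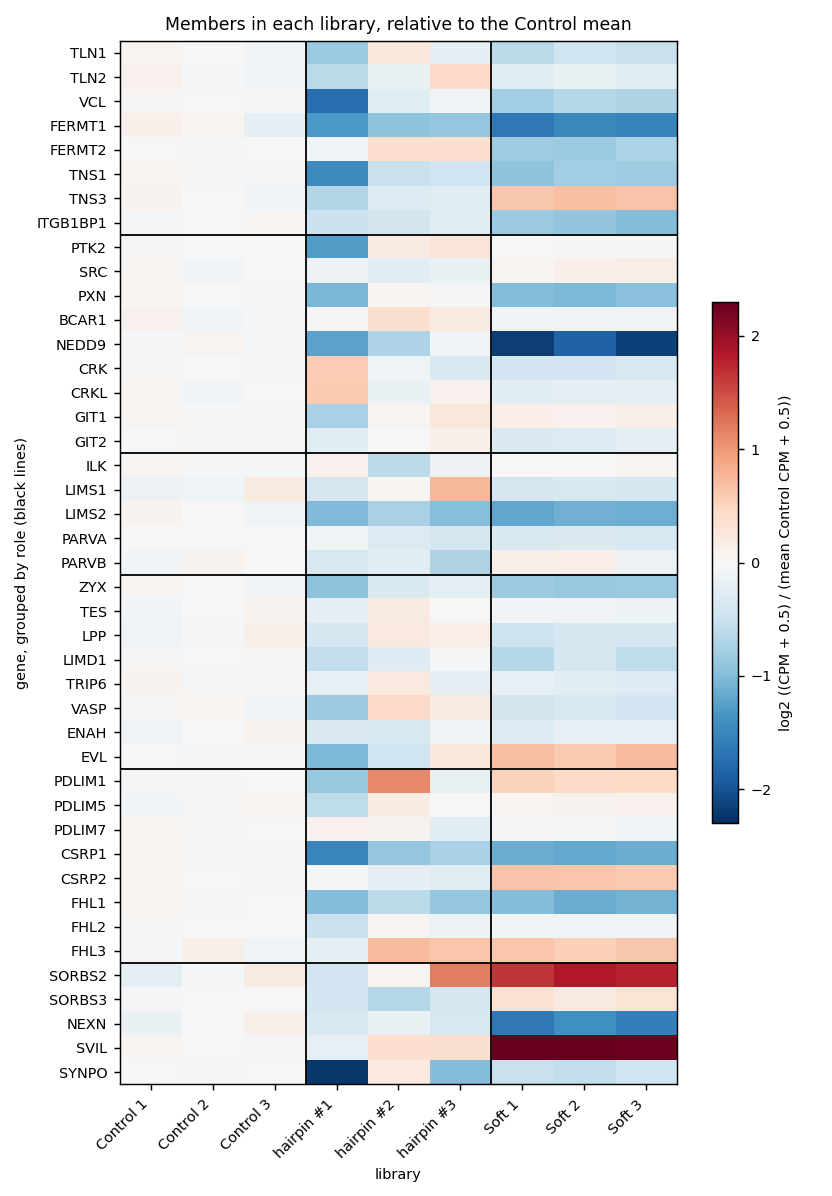
Heat map of the 43 genes (rows, grouped by role) in the 9 libraries (columns), coloured by the log2 CPM of a library minus the Control mean. The Soft columns resemble each other, while the column of hairpin #1 is lower than those of hairpins #2 and #3 for most rows.

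The proteins closest to the membrane mostly link integrins to actin, while ITGB1BP1 competes with talin. Of this group FERMT1, FERMT2 and ITGB1BP1 fell and TNS3 rose in Soft, and FERMT1 fell in sh_PIP4K2B. FERMT1, encoding kindlin-1 of epithelial cells (GRCh38 chr20:6074845-6123214), was at 7.22, 6.93 and 5.68 CPM in Control, at 2.35, 3.23 and 3.36 CPM with the hairpins and at 1.78, 2.05 and 1.97 CPM in Soft. Both conditions lay below Control without overlap, and Soft lay below all hairpins. The log2 fold change was -1.15 (SE 0.19, edgeR adjusted p = 0.0049) in sh_PIP4K2B and -1.77 (SE 0.20, edgeR adjusted p = 1.3e-04) in Soft, both against the same Control libraries. Without any 1 Control or Soft library the first of these had an adjusted p of 0.013 to 0.033.

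FERMT2 encodes kindlin-2, the widely expressed kindlin (chr14:52857268-52952435). It was at 125, 129 and 125 CPM in Control, 119, 166 and 165 CPM with hairpins #1, #2 and #3, and 71.4, 69.9 and 76.6 CPM in Soft. Soft was below every glass library, whereas the hairpins lay on both sides of Control. FERMT2 fell in Soft by 0.80 against Control (SE 0.14, edgeR adjusted p = 0.0012) and by 1.05 against sh_PIP4K2B (SE 0.14, edgeR adjusted p = 3.3e-04) on the log2 scale, and its adjusted p in sh_PIP4K2B against Control was 0.24 (edgeR).

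ITGB1BP1, also named ICAP-1, binds the integrin beta1 tail and competes there with talin (chr2:9403475-9423528). Its levels were 78.0, 79.4 and 82.1 CPM in Control, 56.9, 59.3 and 67.6 CPM with the hairpins and 44.6, 42.1 and 39.9 CPM in Soft, 3 separate ranges in that order. The log2 fold change was -0.92 in Soft against Control (SE 0.10, edgeR adjusted p = 1.3e-04) and -0.54 in Soft against sh_PIP4K2B (SE 0.10, edgeR adjusted p = 0.0024). The second had an adjusted p of 0.014 and 0.017 when Soft replicate 2 or 3 was left out. Against Control the hairpins had an adjusted p of 0.031 (edgeR), above the threshold.

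The tensins, which bind integrin tails and actin at the fibrillar adhesions of the cell centre, are represented by TNS1 and TNS3. TNS3 (chr7:47275154-47582558) was at 263, 247 and 239 CPM in Control, 157, 204 and 205 CPM with the hairpins and 384, 403 and 393 CPM in Soft. All hairpins were below Control and all Soft libraries above it. It rose in Soft against Control (log2 fold change 0.66, SE 0.12, edgeR adjusted p = 0.0023; 0.012 to 0.016 without Control replicate 2 or 3 or Soft replicate 2 or 3) and differed between Soft and sh_PIP4K2B by 1.06 (SE 0.13, edgeR adjusted p = 2.0e-04). TNS1 had a mean of 139 ± 5.13 CPM in Control, 83.0 ± 28.5 in sh_PIP4K2B and 77.4 ± 3.40 in Soft (SD, n = 3), and in neither comparison against Control did it pass (edgeR adjusted p = 0.048 and 0.012).

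Talin and vinculin themselves did not pass in the fit over all libraries. TLN1, the talin of most tissues, was at 1301, 1236 and 1192 CPM in Control, 689, 1481 and 1061 CPM with hairpins #1, #2 and #3, and 811, 905 and 868 CPM in Soft. VCL, encoding vinculin, was at 1224, 1207 and 1179 CPM in Control, 357, 993 and 1122 CPM with the hairpins and 699, 768 and 742 CPM in Soft. For both genes Soft was below Control without overlap, and hairpin #1 was far below the other hairpins. Adjusted p-values in Soft against Control were 0.089 for TLN1 and 0.11 for VCL (edgeR), with log2 fold changes of -0.53 (SE 0.23) and -0.71 (SE 0.33). In the fit of Soft and Control alone they were 2.0e-08 and 1.5e-10 (edgeR). TLN2, the second talin, averaged 38.4 ± 2.21 CPM in Control, 37.2 ± 14.1 CPM with the hairpins and 33.1 ± 1.37 CPM in Soft (SD, n = 3).

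**Figure D2:**
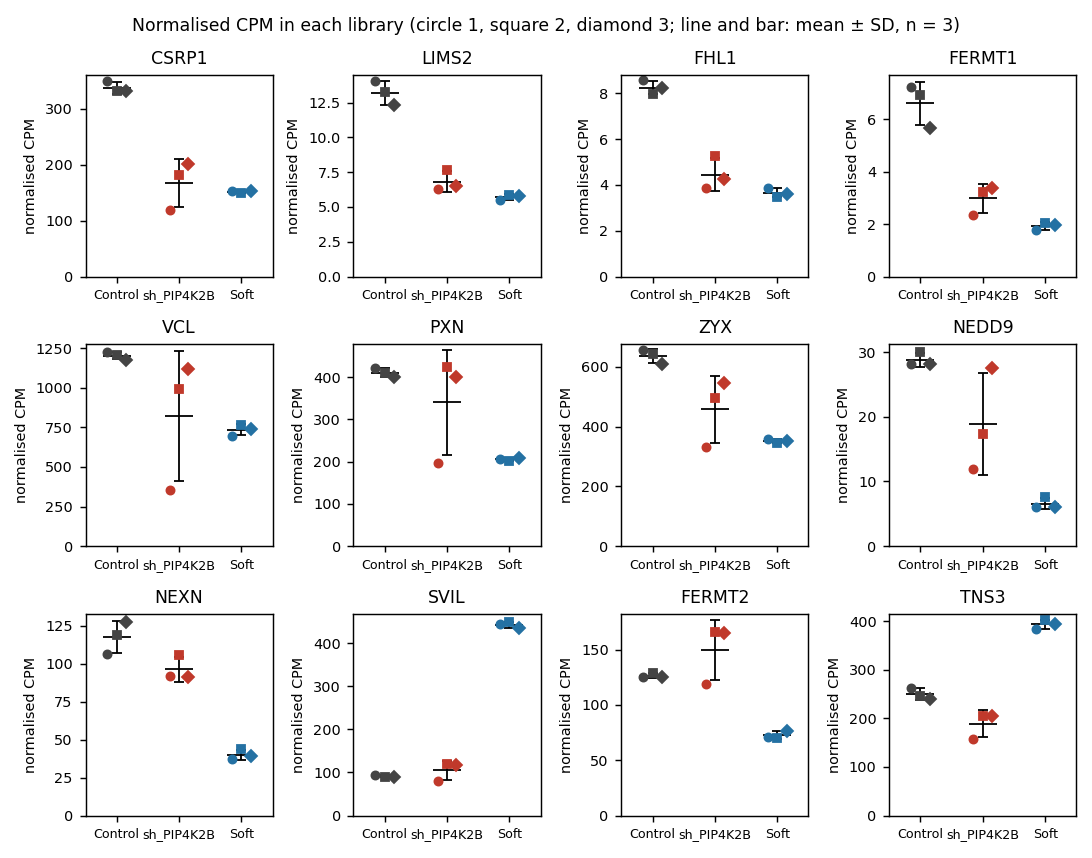
CPM in each library of CSRP1, LIMS2, FHL1, FERMT1, VCL, PXN, ZYX, NEDD9, NEXN, SVIL, FERMT2 and TNS3 on a linear axis. Each library is 1 point, with a line and bar for the mean and SD of each condition (n = 3). Soft points cluster tightly, and SVIL stands at 435 to 449 CPM in Soft against 88.9 to 93.4 in Control. Hairpin #1 is the lowest hairpin for VCL and PXN.

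Of the 9 kinases, docking proteins and GIT scaffolds, PXN and NEDD9 fell in Soft against Control, as did 14.8% of all genes. None of the 9 passed in sh_PIP4K2B by edgeR (5.54% of all genes) or by DESeq2 (15%). At an unadjusted edgeR p under 0.05, 1 was lower. PXN encodes paxillin, the docking protein that FAK and SRC phosphorylate (chr12:120210439-120265771). Its levels were 421, 410.5 and 400.3 CPM in Control, 198, 425 and 399.9 CPM with hairpins #1, #2 and #3, and 205, 201 and 209.5 CPM in Soft. Soft was at the level of hairpin #1, while hairpins #2 and #3 lay just above and just below the Control range. PXN fell in Soft against Control by 1.00 on the log2 scale (SE 0.24, edgeR adjusted p = 0.0079; 0.024 to 0.032 without any 1 Control or Soft library).

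NEDD9, a relative of p130Cas that SRC phosphorylates (chr6:11183298-11382348), had the lowest log2 fold change of the set in Soft. It was at 28.2, 30.1 and 28.1 CPM in Control, 11.97, 17.3 and 27.5 CPM with the hairpins and 6.02, 7.62 and 6.12 CPM in Soft. The hairpins filled the gap between Soft and Control and overlapped neither. The log2 fold change was -2.13 in Soft against Control (SE 0.27, edgeR adjusted p = 2.5e-04) and -1.52 in Soft against sh_PIP4K2B (SE 0.27, edgeR adjusted p = 0.0015). With the hairpins against Control it was -0.60 (SE 0.25), short of the threshold (edgeR adjusted p = 0.13). BCAR1, which encodes p130Cas itself, averaged 161 ± 9.43 CPM in Control, 183 ± 25.9 CPM with the hairpins and 151 ± 1.20 CPM in Soft (SD, n = 3).

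The kinase genes PTK2 and SRC did not pass in any comparison. PTK2, encoding FAK, was at 173, 177 and 176 CPM in Control, 71.5, 199 and 216 CPM with hairpins #1, #2 and #3, and 176, 179 and 178 CPM in Soft. Thus 1 hairpin was below Control, the others were above it, and the Soft range overlapped Control. SRC was at 60.1, 55.3 and 57.1 CPM in Control, 52.5, 48.4 and 51.9 CPM with the hairpins and 60.0, 62.3 and 63.3 CPM in Soft. The hairpins were below Control without overlap and Soft was not separate from Control, with adjusted p-values of 0.21 and 0.36 (edgeR). The adaptors CRK and CRKL, which bind phosphorylated paxillin and p130Cas, were highest with hairpin #1 (161 and 119.8 CPM, against Control means of 108 and 78.5). GIT1 and GIT2, scaffolds that bring the exchange factor PIX to paxillin, ranged from 50.2 to 101 CPM and from 61.5 to 84.0 CPM over the 9 libraries.

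In the complex of ILK, PINCH and parvin, which binds kindlin and actin, LIMS2 was the 1 of 5 genes that passed, in both comparisons against Control. Among all genes 5.54% passed in sh_PIP4K2B and 30.6% in Soft. LIMS2 (PINCH-2, chr2:127638381-127681786) was at 14.1, 13.3 and 12.3 CPM in Control, 6.31, 7.66 and 6.48 CPM with the hairpins and 5.47, 5.86 and 5.77 CPM in Soft. Every hairpin and every Soft library was below Control, and Soft was below the hairpins. The log2 fold change against the shared Control libraries was -0.95 in sh_PIP4K2B (SE 0.13, edgeR adjusted p = 0.0021; 0.012 to 0.017 without any 1 Control library) and -1.21 in Soft (SE 0.13, edgeR adjusted p = 1.2e-04).

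ILK, the pseudokinase at the centre of the complex, was at 219.5, 204 and 204 CPM in Control, 223, 138 and 193 CPM with hairpins #1, #2 and #3, and 209.7, 207 and 215 CPM in Soft. Its Soft values fell inside the Control range, and hairpin #1 was above Control while the other hairpins were below. LIMS1 (PINCH-1) averaged 66.9 ± 9.18 CPM in Control, 78.0 ± 32.7 CPM with the hairpins and 51.1 ± 0.768 CPM in Soft (SD, n = 3), a level that is uncertain because 15.3% of the 75-base stretches of its transcript are shared with other genes, mostly with LIMS3. PARVA and PARVB, encoding alpha- and beta-parvin, had adjusted p-values of 0.13 and 0.063 with the hairpins and 0.023 and 0.79 in Soft against Control (edgeR).

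**Figure D3:**
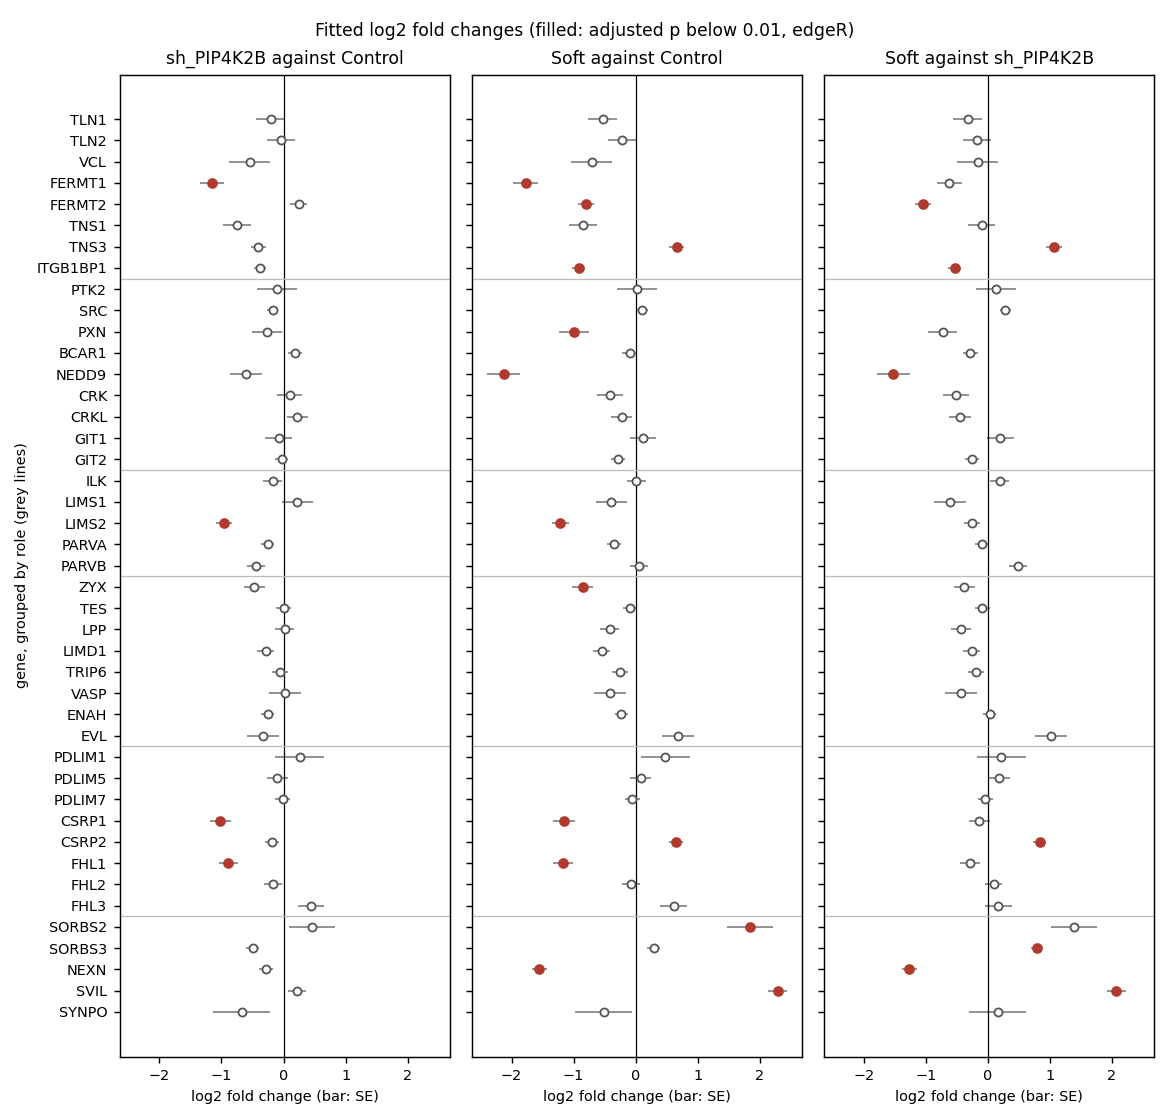
Log2 fold changes of the 43 genes with their standard errors (n = 3 libraries a condition) for the 3 comparisons, with filled points for an edgeR adjusted p under 0.01. The filled points number 4 in sh_PIP4K2B against Control, 14 in Soft against Control and 8 in Soft against sh_PIP4K2B.

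The zyxin family and Ena/VASP group act on the actin side of the plaque. Of these 8, ZYX was the 1 that passed in Soft against Control (30.6% of all genes). None passed with the hairpins by edgeR (5.54% of all genes) or DESeq2 (15%), and 2 were lower at an unadjusted edgeR p under 0.05. ZYX encodes zyxin, which moves to strained stress fibres to help repair them (chr7:143381295-143391111). It was at 655, 643 and 608 CPM in Control, 331, 495 and 546 CPM with the hairpins and 357, 346 and 351 CPM in Soft. All libraries of both conditions were below Control, with Soft next to hairpin #1. It fell in Soft by 0.85 on the log2 scale (SE 0.17, edgeR adjusted p = 0.0031; 0.011 to 0.016 without any 1 Control or Soft library), and in sh_PIP4K2B the adjusted p was 0.086 (edgeR).

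EVL, an actin-polymerising relative of VASP (chr14:99971449-100144236), was at 19.3, 19.9 and 19.2 CPM in Control, 9.25, 14.1 and 23.0 CPM with hairpins #1, #2 and #3, and 31.6, 29.9 and 32.3 CPM in Soft. Soft was above all glass libraries, and the hairpins lay on both sides of Control. Neither its difference from Control (log2 fold change 0.68, SE 0.26, edgeR adjusted p = 0.055) nor from sh_PIP4K2B (1.02, SE 0.26, edgeR adjusted p = 0.011) passed.

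VASP and ENAH, the other Ena/VASP actin elongators, averaged 199.8 ± 7.97 and 120.1 ± 7.50 CPM in Control and 149.9 ± 4.24 and 102 ± 4.64 CPM in Soft (SD, n = 3). LIMD1, a LIM protein that binds the Hippo kinase LATS under tension, was just outside the threshold in Soft, from 49.7 ± 0.928 CPM in Control to 33.9 ± 3.21 CPM (log2 fold change -0.55, SE 0.14, edgeR adjusted p = 0.010). TES, LPP and TRIP6, all zyxin relatives with LIM domains, had adjusted p-values of 0.054 to 0.55 in Soft and of 0.82 to 0.998 with the hairpins (edgeR).

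The PDZ-LIM, CRP and FHL proteins bind actin bundles or alpha-actinin through LIM and PDZ domains, and here CRP paralogues moved apart. CSRP1, encoding the actin-bundling CRP1 of smooth muscle and other cells (chr1:201483530-201509456), was at 349.5, 331 and 331 CPM in Control, 118, 182 and 201 CPM with the hairpins, and 153, 149.6 and 153 CPM in Soft. Control stood above all other libraries, and the hairpins bracketed Soft. The log2 fold change was -1.02 in sh_PIP4K2B (SE 0.17, edgeR adjusted p = 0.0057) and -1.15 in Soft (SE 0.18, edgeR adjusted p = 7.0e-04), and the first had an adjusted p of 0.015 to 0.031 without any 1 Control or Soft library.

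CSRP2 (CRP2, chr12:76858709-76879023) was at 14.3, 13.7 and 13.3 CPM in Control, 13.4, 11.8 and 11.2 CPM with the hairpins and 22.1, 21.7 and 21.2 CPM in Soft. Soft was above all 6 glass libraries. It rose in Soft against Control (log2 fold change 0.65, SE 0.11, edgeR adjusted p = 0.0013) and was higher in Soft than in sh_PIP4K2B (0.83, SE 0.11, edgeR adjusted p = 3.8e-04).

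FHL1, a LIM-only protein best known from muscle (chrX:136146702-136211359), was at 8.57, 7.99 and 8.21 CPM in Control, 3.87, 5.25 and 4.25 CPM with the hairpins and 3.88, 3.48 and 3.62 CPM in Soft. Both conditions were below Control without overlap. Silencing gave a log2 fold change of -0.89 (SE 0.16, edgeR adjusted p = 0.0062; 0.016 to 0.037 without any 1 Control or Soft library) and the soft gel one of -1.17 (SE 0.16, edgeR adjusted p = 3.4e-04). FHL2, the abundant FHL of these cells, averaged 249 ± 3.20 CPM in Control, 222 ± 42.9 CPM with the hairpins and 237 ± 2.39 CPM in Soft (SD, n = 3). FHL3 averaged 22.7 ± 2.09, 30.8 ± 9.77 and 34.7 ± 0.967 CPM in that order (SD, n = 3), and its difference in Soft did not pass (log2 fold change 0.61, SE 0.21, edgeR adjusted p = 0.040).

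PDLIM1, PDLIM5 and PDLIM7 tie alpha-actinin or other Z-disc and stress-fibre proteins to LIM-bound kinases, and their adjusted p-values over the 3 comparisons ran from 0.35 to 0.95 (edgeR). PDLIM1 was at 259 CPM with hairpin #2 against 65.2 and 106 CPM with #1 and #3 and 119.7 ± 1.95 CPM in Control (SD, n = 3).

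The vinexin family and stress-fibre proteins held the largest rises of the 43 in Soft. SVIL encodes supervillin, a membrane-bound actin and myosin binder (chr10:29457338-29736959). It was at 93.4, 90.3 and 88.9 CPM in Control, 79.8, 119 and 117 CPM with hairpins #1, #2 and #3, and 445, 449 and 435 CPM in Soft. The 3 Soft libraries stood far above the 6 on glass, and the hairpins lay on both sides of Control. The log2 fold change was 2.29 in Soft against Control (SE 0.16, edgeR adjusted p = 1.2e-05) and 2.07 in Soft against sh_PIP4K2B (SE 0.15, edgeR adjusted p = 2.6e-05). Of the 75-base stretches in its transcript 2.37% are shared with other genes, mostly with SVIL2P.

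SORBS2, also named ArgBP2, is a vinculin-binding adaptor (chr4:185585444-185956652) that was low on glass, at 4.10, 4.74 and 5.64 CPM in Control and 3.41, 5.06 and 11.5 CPM with the hairpins. In Soft it was at 16.1, 18.5 and 17.6 CPM, above every glass library. It rose in Soft against Control by a log2 fold change of 1.85 (SE 0.37, edgeR adjusted p = 0.0032; 0.010 to 0.018 without any 1 Control or Soft library). Against sh_PIP4K2B the difference of 1.39 (SE 0.37) missed the threshold (edgeR adjusted p = 0.012).

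SORBS3, encoding vinexin, was at 106, 108 and 109 CPM in Control, 78.9, 68.2 and 81.3 CPM with the hairpins and 137, 123 and 134 CPM in Soft. Hairpins were below Control and Soft was above it, each without overlap. Neither comparison against Control passed (edgeR adjusted p = 0.011 and 0.039), whereas Soft was higher than sh_PIP4K2B by a log2 fold change of 0.79 (SE 0.10, edgeR adjusted p = 3.1e-04).

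NEXN, encoding the actin-filament binder nexilin (chr1:77888513-77943895), went the other way. It was at 106, 119 and 128 CPM in Control, 92.0, 106 and 91.4 CPM with the hairpins and 37.3, 43.8 and 39.3 CPM in Soft. All Soft libraries were below all glass libraries. NEXN fell in Soft by 1.55 against Control (SE 0.12, edgeR adjusted p = 1.8e-05) and by 1.26 against sh_PIP4K2B (SE 0.12, edgeR adjusted p = 6.2e-05) on the log2 scale. SYNPO, encoding the actin-bundling synaptopodin, averaged 106 ± 1.31 CPM in Control and 73.9 ± 2.94 CPM in Soft (SD, n = 3), while hairpins #1, #2 and #3 gave 22.3, 124 and 52.7 CPM. With an SE of 0.46 on the log2 scale its differences did not pass (edgeR adjusted p = 0.34 and 0.38).

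Soft and silenced cells were also compared directly, which tests whether their differences from the shared Control were equal. Of the 43, TNS3, CSRP2, SORBS3 and SVIL were higher in Soft and FERMT2, ITGB1BP1, NEDD9 and NEXN were lower. Of all genes, 14.5% were higher and 15.5% lower (30% in total). The median over the 43 was -0.14 against -0.03 for all genes. All Soft libraries were below all hairpins for 9 members (26.7% of genes) and above them for 8 (27.3% of genes). A fit of Soft and sh_PIP4K2B alone called 4 members higher (7.98% of genes) and 3 lower (8.13% of genes). FERMT1, LIMS2, CSRP1 and FHL1 did not differ past the threshold between the conditions, with log2 differences (Soft minus sh_PIP4K2B) of -0.62, -0.26, -0.14 and -0.28 and adjusted p-values of 0.030, 0.14, 0.54 and 0.17 (edgeR).

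**Figure D4:**
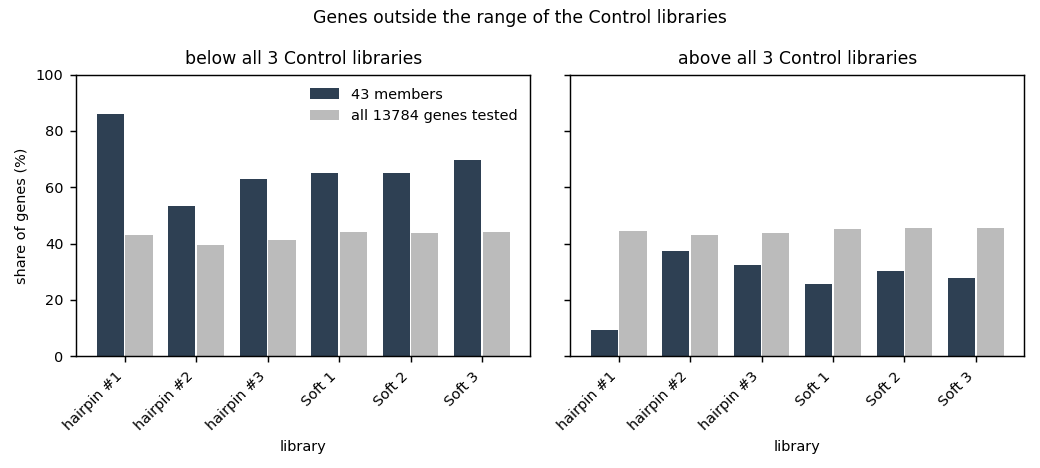
Percent of the 43 genes below (left) and above (right) all 3 Control libraries in each hairpin and Soft library, beside the percent of all tested genes. Hairpin #1 has 37 members below Control and 4 above, and the other 5 libraries have 23 to 30 below.

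Hairpin #1 differed from the other hairpins for these genes. It had 37 of the 43 below all Control libraries and 4 above, where 43.1% and 44.6% of genes were. Hairpin #2 had 23 below and 16 above (39.4% and 43% of genes), and hairpin #3 had 27 below and 14 above (41.3% and 43.9%). The median log2 difference of the members from the Control mean was -0.49, -0.16 and -0.11 with hairpins #1, #2 and #3. In Soft replicates 1, 2 and 3 that median was -0.31, -0.24 and -0.24. PIP4K2B itself was at 48.4 CPM with hairpin #1, the highest of the hairpin levels. Without hairpin #1, which leaves 2 libraries in sh_PIP4K2B, 7 members were lower than Control (FERMT1, TNS1, LIMS2, PARVA, CSRP1, FHL1 and SORBS3) and 3 were higher (FERMT2, SVIL and FHL3), where 11.9% of genes were called. In Soft against Control 25 then passed, where 45.6% of genes did.

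The order of levels among the plaque genes was compared per kilobase of transcript. In Control ZYX led with 285 CPM per kb, before VCL at 219, CSRP1 at 185, FHL2 at 157, PDLIM7 at 145 and TLN1 at 144, and PDLIM7 and TLN1 differed by less than their SDs of 4.24 and 6.39. SORBS2 at 0.712 and FERMT1 at 1.43 CPM per kb were the lowest. In Soft ZYX still led with 158 CPM per kb, and FHL2 and PDLIM7, at 149.6 and 139.8 CPM per kb, came next. SVIL moved from rank 32 in Control, at 10.9 CPM per kb, to rank 11 in Soft, at 53.3. NEXN moved from rank 16 to rank 29, NEDD9 from 35 to 42 and CSRP1 from 3 to 8.

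**Figure D5:**
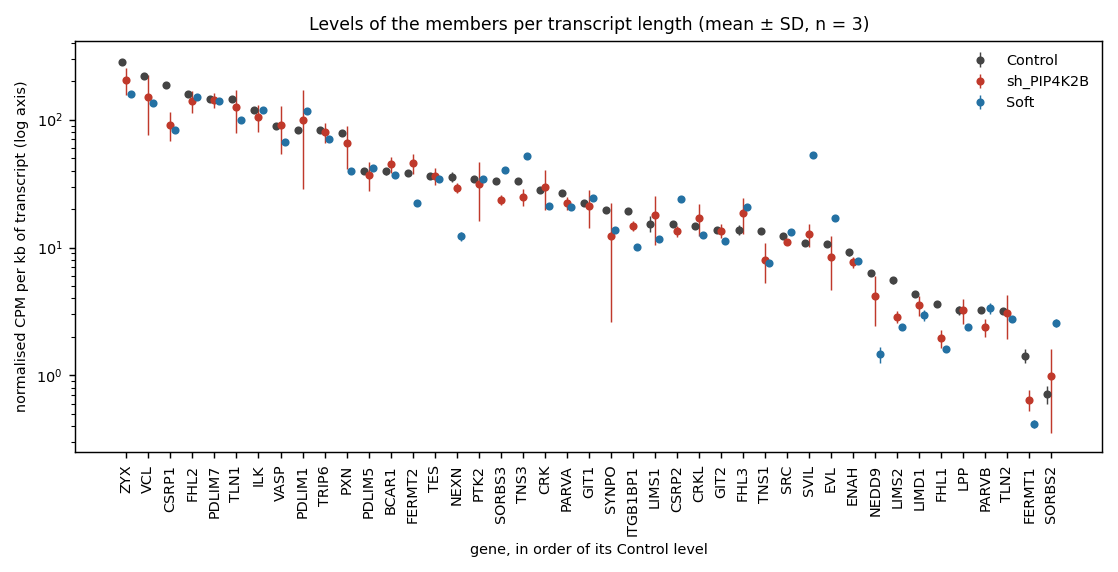
Mean level of each of the 43 genes in CPM per kilobase of its canonical transcript on a log axis, ordered by the Control mean, for the 3 conditions, with bars for the SD (n = 3). SVIL, EVL and SORBS2 lie above and NEXN, NEDD9 and FERMT1 below their Control level in Soft.

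Other genes of the same structures were taken from a list of 58 other adhesion plaque and actin-link proteins, called partners here, of which 51 were tested. With the hairpins AJUBA, a LIM protein of the zyxin family, rose (log2 fold change 0.74, SE 0.10, edgeR adjusted p = 0.0018), while PDLIM2 (-0.83, adjusted p = 0.0057) and the actin crosslinker FLNA (-0.70, adjusted p = 0.0057) fell. Of the 51, 1.96% rose and 3.92% fell, against 2.76% and 2.77% of all genes. None of these 3 calls held without Control replicate 1, 2 or 3, where 0.872%, 0.471% and 1.15% of all genes were called. In Soft against Control 4 rose (7.84% of the 51, against 15.8% of all genes) and 14 fell (27.5%, against 14.8%), a total near the 30.6% of all genes. Without any 1 Control or Soft library 3 partners rose and 7 fell, where 17.9% to 19.4% of all genes were called in either direction. Among the highest were the tensin TNS2 (1.75), and KANK2, which binds talin (1.25). The lowest were the titin- and actinin-binding MYPN (-2.19), lamellipodin RAPH1 (-1.95) and APBB1IP, the RAP1 effector that recruits talin (-1.89). In Soft against sh_PIP4K2B 6 were higher (11.8%, against 14.5% of all genes) and 13 lower (25.5%, against 15.5%). These were led by TNS2 (1.36) and by DLC1 (-1.91, SE 0.16, edgeR adjusted p = 4.0e-05). Without 1 Soft library 8 to 10 of these passed, where 16.8% to 17.1% of all genes did. The partners' median log2 fold change was -0.14 with the hairpins and -0.37 in Soft against Control.

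Promoters of the members were searched for motifs of 2 factors that respond to actin and tension, the CArG box of SRF and GGAATG, the core bound by the TEAD partners of YAP. RefSeq promoters, from 250 bases before to 50 after the start of a gene, were at hand for 37 of the 43, and both strands were read. For members and tested genes only the first listed promoter of each gene was read, while the 35116 are all listed promoters. A CArG box was found in 2 of the 37 (5.41%), against 1.29% of all 35116 promoters and 1.04% of the 10258 promoters of tested genes. GGAATG was found in 3 of the 37 (8.11%), against 14% of all promoters and 10.9% of those of tested genes. The 30 bases around each match are shown because they are the members' own matches, 5′ to 3′ along the gene, with the motif in capitals (RefSeq, GRCh38.p14).
ITGB1BP1, chr2:9423703-9423732, minus strand: ccggggtcttCCTAAATTGGaagcacagcc
FHL2, chr2:105438595-105438624, minus strand: aatctggagaCCTTAAAAGGcacgtgggag
NEXN, chr1:77888532-77888561, plus strand: ctgggcccgcctGGAATGcgggaacaggct
TRIP6, chr7:100867306-100867335, plus strand: gaccctcccccaGGAATGtggtgacgtcat
VCL, chr10:73997933-73997962, plus strand: gcccctcccttaGGAATGggggaggggcgg
Of the genes with these letters, ITGB1BP1 and NEXN fell in Soft, while VCL, TRIP6 and FHL2 did not pass (edgeR adjusted p = 0.11, 0.15 and 0.69). The first listed windows of LIMS2, CSRP1 and FHL1, which fell against Control, held neither motif, and FERMT1 had no entry. A match describes letters in this window and was not tested as a binding site.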

How the data were processed

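RNA was measured in 9 libraries of hTERT_RPE1 cells. The authors deposited 1 table of estimated counts for each gene and library, without normalisation or pooling, from stranded mRNA libraries. CPM were computed here as counts over the TMM-scaled library size. The submitters' processing notes name GRCh38/hg38, STAR and Salmon, and the annotation is not given in the sources used here. Of the values 12.3% were not whole, and all were rounded. If estimated counts divide reads between similar genes, levels of paralogues such as LIMS1 and LIMS3 are uncertain.

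Genes were filtered by filterByExpr, scaled by TMM and tested in 1 edgeR 4.0.16 quasi-likelihood fit over the 9 libraries (R 4.3.3) with Benjamini-Hochberg adjustment over 13784 genes and a threshold of 0.01. Standard errors came from the F statistic. This gives the same spread to all conditions. Plots used log2 of CPM plus 0.5. Alternatives were 2 other filters, 2 other scalings, DESeq2 1.42.0, limma 3.58.1 voom, fits of 2 conditions, a replicate block, leaving out each library and a threshold of 0.05.

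The members, their role lists, the 58 partners and the motifs were chosen with earlier results of these data known. All members are named, and values per library are given for those past the threshold with an absolute log2 fold change of at least 0.5, those with at least 1, and VCL, TLN1, PXN, ZYX, PTK2, SRC and ILK. Of the partners, the 3 highest and 3 lowest calls of a comparison were eligible to be named. A partner result is not reported here. Transcript lengths, positions and shared 75-base stretches (75 being the read length) are from the GRCh38 annotation.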

Additional observations from a re-analysis of the deposited data

Results flagged for a closer look

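For 8 of the 43 genes the effect of the soft gel and that of PIP4K2B silencing differed by the direct test of Soft against sh_PIP4K2B (edgeR adjusted p under 0.01). In log2, the difference was 2.07 for SVIL (adjusted p = 2.6e-05), 1.06 for TNS3 (adjusted p = 2.0e-04), 0.83 for CSRP2 (adjusted p = 3.8e-04) and 0.79 for SORBS3 (adjusted p = 3.1e-04), all higher in Soft in 3 of 3 libraries than in any hairpin library. It was -1.05 for FERMT2 (adjusted p = 3.3e-04), -0.54 for ITGB1BP1 (adjusted p = 0.0024), -1.52 for NEDD9 (adjusted p = 0.0015) and -1.26 for NEXN (adjusted p = 6.2e-05), all lower in Soft in 3 of 3 libraries. Among all genes 30% passed this test.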

How the results depend on the processing

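Upon silencing, the count of 4 members called was 7 at a threshold of 0.05 (17.2% of all genes), 8 by DESeq2 (15%), 1 by limma voom (CSRP1; 2.31%) and 0 in a fit of sh_PIP4K2B and Control alone, where PIP4K2B itself had an adjusted p of 0.012 (edgeR). Leaving out 1 library gave 0 to 10 members (0.471% to 14.4% of all genes), with 0 without any Control library, 1 without any Soft library, 10 without hairpin #1, 6 without #2 and 7 without #3. The count of 14 in Soft against Control was 33 by limma voom (70% of all genes) and 33 in the fit of those conditions alone (70.7%), and 10 to 25 with 1 library left out (17.9% to 45.6%), 25 being without hairpin #1. The count of 8 in Soft against sh_PIP4K2B was 15 at 0.05 (46.2% of all genes) and 13 by DESeq2 (39.2%), and 7 to 21 with 1 library left out (16.8% to 38.4%), 21 being without hairpin #1.

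Deviations of same-numbered libraries from their condition means correlated at -0.101 to 0.0421. With 3 libraries a condition, and numbers that stand for hairpins in sh_PIP4K2B, this cannot decide whether the replicate numbers pair the samples. In Control and Soft the numbers match the vector titles, which do not say whether libraries were paired. With the replicate block 1 member (LIMS2) passed in sh_PIP4K2B against Control (2.14% of all genes). Of 26 member results past the threshold, 17 passed under all 17 alternatives that keep the threshold of 0.01, all of them in comparisons with Soft. Among the calls in sh_PIP4K2B against Control, FERMT1 and FHL1 passed under 8 of the 17, CSRP1 under 9 and LIMS2 under 12. None of the 45 results that passed or had a log2 fold change of at least 0.5 in size turned sign, while 38 of 87 smaller ones, PIP4K2B among the genes, did in at least 1 alternative. Scaling by library size alone moved the median of all genes in Soft against Control by 0.11 in log2, and that of the members from -0.25 to -0.14. Only 3 libraries a condition, with hairpins that differ as they do here, limit the precision of the changes upon silencing.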
